A study of Homo sapiens with 12 samples.

Results

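The receptors of the ERBB family and the growth factors that bind them were followed through RNA sequencing libraries of PANC-1 cells, a human pancreatic cancer cell line, sorted by a reporter of proteasome activity. The genes were chosen by symbol and make up 8 of the 23284 genes listed: the 3 receptors EGFR, ERBB2 and ERBB3, and the 5 ligands AREG, EREG, TGFA, HBEGF and BTC. Of these 8 genes, 7 reached 1 FPKM (fragments per kilobase of exon, scaled to the number of mapped fragments) in at least 2 libraries and were tested among 12946 genes, and BTC did not reach it.

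The study compared degron (++) cells, a model of cancer stem-like cells with low proteasome activity, with degron (−) cells, before and after gamma irradiation. All cells carried the same retroviral reporter, ZsGreen joined to the ornithine decarboxylase degron, which the proteasome recognizes, under G418 selection. The degron (−) cells were the infected line itself, in which few cells are ZsGreen positive, and the degron (++) cells were the most fluorescent cells of a line obtained from it by repeated sorting, so that each population is a single line and the sorting history cannot be told apart from the reporter signal. Each was sequenced in 3 conditions, written here as dose and hours: 0 Gy/48 h, 4 Gy/30 h and 4 Gy/48 h. There were 2 libraries in each of the 6 groups, 12 in all.

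The starting point of the hours is not given in the labels, and neither is whether the 2 libraries of a group came from separate cultures, so p-values measure the spread between these libraries only, which may be technical. The 6 libraries taken here as degron (−) are ZsGreen negative in their titles but d+ in their descriptions, and they were grouped by title. Depth was not known, since FPKM hold no counts, and the FPKM of a degron (++) library summed to 829654 to 916877 and those of a degron (−) library to 707273 to 763064. All 6 epithelial markers (KRT7, KRT8, KRT18, KRT19, EPCAM and CDH1) reached 1 FPKM in both populations, with sums of 7184 to 8369 FPKM in degron (++) and 4226 to 5137 FPKM in degron (−) libraries. Of the 6 fibroblast markers, COL1A2 and DCN were listed at 0 in every library, COL1A1 lay at 0.531 to 0.826 FPKM in degron (++) and 36.5 to 52.3 in degron (−) libraries, and LUM at 13.8 to 24.7 and 0.29 to 1.61. The 5 leukocyte markers summed to at most 2.22 FPKM and the 4 endothelial markers to at most 0.556 FPKM in any library.

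EGFR, ERBB2, ERBB3 and ERBB4 are cell surface tyrosine kinases that work in pairs. A ligand opens the receptor so that it can pair, and the partners then phosphorylate each other and recruit adaptors that drive the RAS-ERK and PI3K-AKT pathways. AREG, EREG, TGFA, HBEGF, BTC, EGF and EPGN bind EGFR. The neuregulins bind ERBB4, and some of them, such as NRG1, also bind ERBB3. ERBB2 has no ligand of its own, and ERBB3 has a weak kinase and signals mainly with ERBB2. Ligands are made as membrane proteins and released by proteases of the ADAM family.

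The 3 receptor genes and the ligand genes AREG, EREG, TGFA and HBEGF were higher in degron (++) than in degron (−) cells in every condition. The difference was largest for ERBB3, at 8.11 times the mean FPKM at 0 Gy, 4.07 to 4.40 times for ERBB2, EREG and TGFA, 2.16 times for HBEGF and 1.57 times for EGFR. All 7 tested members passed an adjusted p of 0.05 (limma on log2(FPKM + 1), Benjamini-Hochberg over all genes tested) in each of the 3 conditions, and for each of them the 6 degron (++) libraries lay above the 6 degron (−) libraries. The populations differed in most genes, so this count stands against a high background: 37.6% of all genes tested were higher in degron (++) at 0 Gy/48 h, 38.3% at 4 Gy/30 h and 37.1% at 4 Gy/48 h, and 32.1% were higher in all 3 conditions with no overlap of the libraries. The median log2 fold change of the 7 genes was 1.81, 1.67 and 1.62 in the 3 conditions, beside −0.023, −0.021 and −0.0091 over all genes tested. AREG is counted here although it reached 1 FPKM only in degron (++) libraries, so that it had to be the higher of the 2 if tested at all. On the FPKM scale the 6 epithelial markers were higher in degron (++) cells too, each in all 3 conditions, with a median log2 fold change of 1.38, 1.69 and 1.27. At 0 Gy the difference was 2.85 for CDH1, 2.66 for KRT7 and 2.21 for EPCAM, and 0.54, 0.48 and 0.17 for KRT18, KRT8 and KRT19. KRT8 did not pass there after quantile normalization. KRT19 turned to −0.037 at 0 Gy and −0.036 at 4 Gy/48 h on the TPM scale (each library rescaled to the same sum). After quantile normalization KRT19 was at −0.050 and −0.10 in these 2 conditions, and it passed in none of the 4 cases. The paper reports no increase of KRT19 in degron (++) cells, without showing the data. The part of these markers in the difference of the receptors and ligands was not tested. In cultured cells measured in bulk, fewer cells that express a gene and less RNA of it per cell cannot be told apart.

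**Figure D1:**
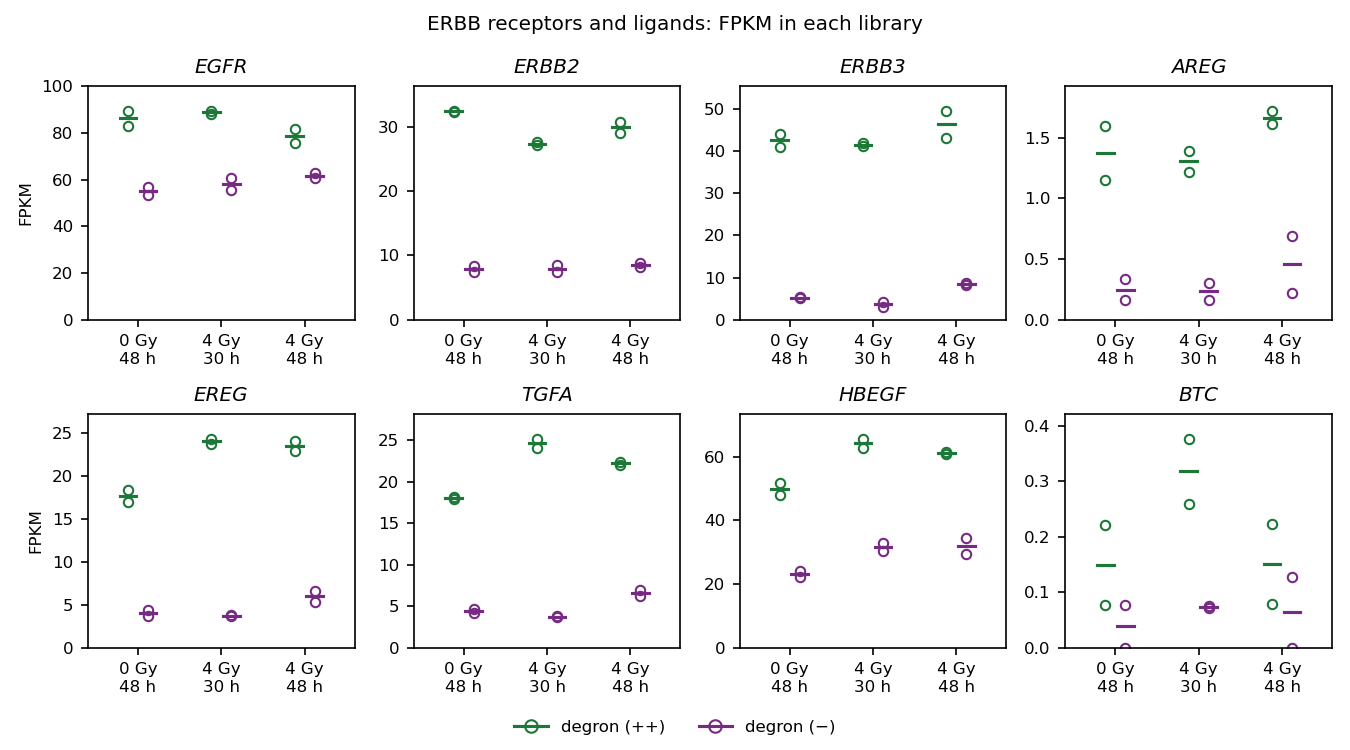
FPKM of the 8 members in each library, with a panel and a linear scale from 0 for each gene; open circles are libraries (2 in each group), bars are group means, green is degron (++) and purple is degron (−). For 7 genes every green circle lies above every purple circle, while for BTC both stay at or under 0.377 FPKM and overlap.

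**Figure D2:**
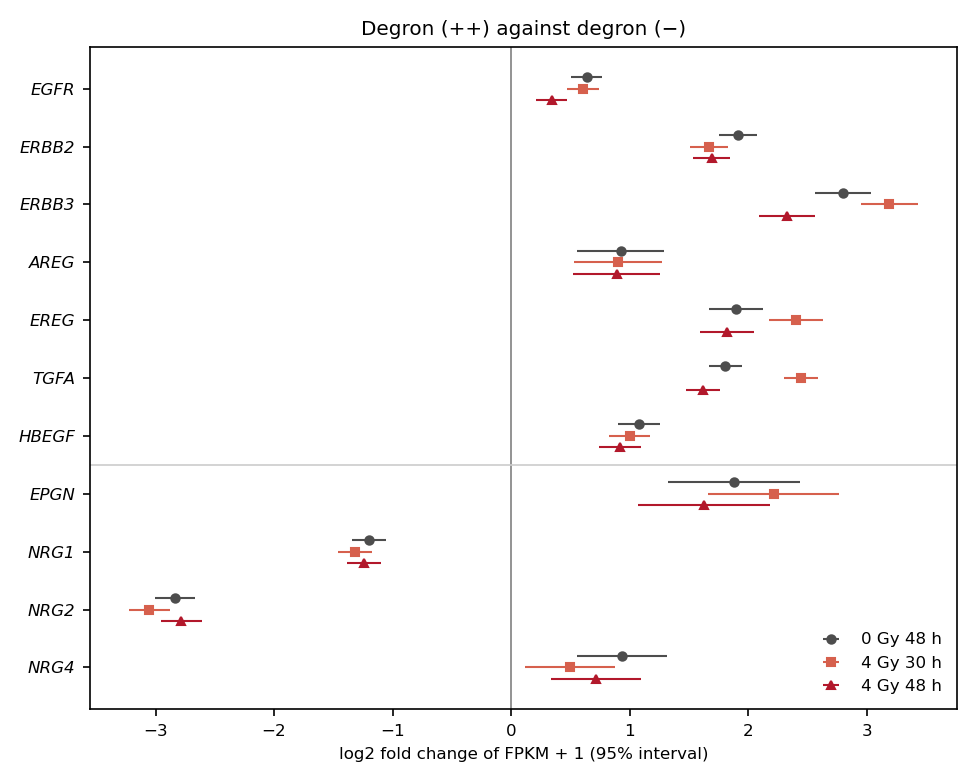
Log2 fold change of FPKM + 1 in degron (++) against degron (−) cells for the 7 tested members (above the line) and the 4 other family genes tested (below it), with 95% intervals of limma, for 3 conditions. ERBB3 lies farthest to the right at 2.33 to 3.19, and NRG1 and NRG2 lie to the left of 0.

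EGFR, the receptor for most of these ligands (chromosome 7), had the highest level and the smallest difference of the 3 receptors. In degron (++) cells it was 89.3 and 83.1 FPKM at 0 Gy/48 h, 88.2 and 89.2 at 4 Gy/30 h, and 75.7 and 81.6 at 4 Gy/48 h. The degron (−) libraries held 53.4 and 56.7, 55.4 and 60.4, and 62.6 and 60.8 FPKM in the same order. The 2 sets did not overlap, but came nearest at 4 Gy/48 h, where the lowest degron (++) library was at 75.7 and the highest degron (−) library at 62.6 FPKM. The log2 fold change was 0.64 ± 0.06 (SE, adjusted p = 7.3e-06, limma) at 0 Gy, 0.61 at 4 Gy/30 h, and 0.34 (adjusted p = 0.000501, limma) at 4 Gy/48 h. This last call depended on the scaling: after each library was rescaled to a sum of 1000000 (TPM) the EGFR difference was 0.083 with an adjusted p of 0.332 (limma). That rescaling moved the median of all genes to −0.21, −0.27 and −0.25 in the 3 conditions, and relative to this median EGFR was 0.65, 0.60 and 0.33 higher. Its other 2 calls, and all calls of the other 6 members between populations, held on the TPM scale.

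ERBB2 (HER2, chromosome 17), the preferred partner of the other receptors, separated the populations more widely. It was 32.4 and 32.5 FPKM in degron (++) cells at 0 Gy/48 h, 27.7 and 27.1 at 4 Gy/30 h, and 29.1 and 30.8 at 4 Gy/48 h. Its degron (−) values were 8.32 and 7.42, 8.45 and 7.44, and 8.28 and 8.86 FPKM. The lowest degron (++) library was at 27.1 FPKM, far above the highest degron (−) library. The ratio of mean FPKM was 4.12, 3.45 and 3.49 in the 3 conditions, and the log2 fold change at 0 Gy was 1.92 ± 0.07 (SE, adjusted p = 1.95e-08, limma).

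ERBB3 (chromosome 12), a neuregulin receptor with a weak kinase, changed rank between the populations. It was 44.0 and 41.1 FPKM in degron (++) cells at 0 Gy/48 h, 41.9 and 41.1 at 4 Gy/30 h, and 43.2 and 49.5 at 4 Gy/48 h. In degron (−) cells it was 5.38 and 5.11 FPKM at 0 Gy/48 h, 3.14 and 4.22 at 4 Gy/30 h, and 8.20 and 8.66 at 4 Gy/48 h. The highest degron (++) library was at 1.21 times the lowest, against 2.76 times for the degron (−) libraries. The latter fell into 3 separate levels, lowest at 4 Gy/30 h and highest at 4 Gy/48 h. The ratio of mean FPKM was accordingly 8.11, 11.3 and 5.50, with log2 fold changes of 2.80 ± 0.10 (SE), 3.19 and 2.33 (adjusted p = 2.24e-08, 8.65e-09 and 8.1e-08, limma).

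Within each library the balance of the 3 receptors differed. Their summed FPKM lay between 148 and 166 in the degron (++) libraries and between 67.0 and 79.1 in the degron (−) ones. EGFR made up 50.4% to 56.7% of that sum in degron (++) and 77.6% to 83.8% in degron (−) libraries. ERBB3 made up 26.1% to 30.6% against 4.68% to 11.1%, and ERBB2 17.2% to 20.7% against 10.3% to 12.6%. The ratio of EGFR to ERBB3 ranged from 1.65 to 2.17 in degron (++) libraries and from 7.02 to 17.7 in degron (−) libraries. These shares do not depend on the scaling of a library, and neither range touched the other for any of the 4 values.

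Among the ligands, HBEGF (chromosome 5), which binds EGFR and ERBB4 and also heparin, had the highest level in both populations. In degron (++) cells it was 47.8 and 51.7 FPKM at 0 Gy/48 h, 65.7 and 62.8 at 4 Gy/30 h, and 61.4 and 60.8 at 4 Gy/48 h. Levels in degron (−) cells were 22.0 and 24.1, 30.5 and 32.8, and 29.5 and 34.5 FPKM. Irradiated libraries were above unirradiated ones in both populations, and the highest degron (−) library, at 34.5, stayed under the lowest degron (++) library. The ratio of mean FPKM was 2.16, 2.03 and 1.91 in the 3 conditions, and the log2 fold change at 0 Gy was 1.08 ± 0.08 (SE, adjusted p = 1.46e-06, limma).

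TGFA (chromosome 2), a high-affinity EGFR ligand, was 18.2 and 17.9 FPKM in degron (++) cells at 0 Gy/48 h, 24.1 and 25.2 at 4 Gy/30 h, and 22.0 and 22.4 at 4 Gy/48 h. Degron (−) cells gave 4.19 and 4.67, 3.66 and 3.75, and 6.18 and 6.92 FPKM. The populations were farthest apart at 4 Gy/30 h, where TGFA was high in degron (++) and low in degron (−) cells. The ratio of means was 4.07 at 0 Gy, 6.65 at 4 Gy/30 h and 3.39 at 4 Gy/48 h, and the log2 fold changes were 1.81 ± 0.06 (SE, adjusted p = 1.46e-08, limma), 2.45 and 1.62.

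EREG (chromosome 4), a low-affinity ligand of EGFR and ERBB4, followed nearly the same course. It was 18.4 and 17.0 FPKM in degron (++) cells at 0 Gy/48 h, 24.4 and 23.8 at 4 Gy/30 h, and 24.1 and 23.0 at 4 Gy/48 h. In degron (−) cells it was 3.63 and 4.41, 3.66 and 3.80, and 5.32 and 6.65 FPKM. The degron (−) libraries did not separate 0 Gy/48 h from 4 Gy/30 h. The ratio of means was 4.40, 6.45 and 3.93, and the log2 fold changes were 1.90 ± 0.10 (SE, adjusted p = 1.86e-07, limma), 2.41 and 1.82.

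AREG (chromosome 4), which binds EGFR, was close to the limit of the filter. It passed the filter only through degron (++) libraries, so it could be tested only as higher in them. It was 1.15 and 1.60 FPKM in degron (++) cells at 0 Gy/48 h, 1.22 and 1.39 at 4 Gy/30 h, and 1.72 and 1.61 at 4 Gy/48 h. Its degron (−) values were 0.16 and 0.332, 0.306 and 0.162, and 0.689 and 0.223 FPKM. The sets did not overlap, and the log2 fold change of FPKM + 1 was 0.93 ± 0.16 (SE, adjusted p = 0.000617, limma) at 0 Gy, a scale that understates the change of a gene this low, since the ratio of means was 5.57. RefSeq lists another symbol, AREGB, as a synonym of AREG, and hg19 held near-identical copies of the gene, so how the FPKM of AREG were split between copies is uncertain.

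BTC (chromosome 4), a ligand of EGFR and ERBB4, was near the bottom of the measured range in both populations. It was 0.076 and 0.221 FPKM in degron (++) cells at 0 Gy/48 h, 0.259 and 0.377 at 4 Gy/30 h, and 0.079 and 0.223 at 4 Gy/48 h. In degron (−) cells it was listed at 0 and at 0.077, at 0.071 and 0.075, and at 0.127 and 0 FPKM. The libraries overlapped at 0 Gy and at 4 Gy/48 h. With no filter on low values the log2 fold change of BTC was 0.14, 0.30 and 0.11 in the 3 conditions, with adjusted p of 0.217, 0.0211 and 0.325 (limma), so that it passed only at 4 Gy/30 h, by values of at most 0.377 FPKM.

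The genes EPGN, EREG, AREG and BTC are neighbours in that order on chromosome 4 (RefSeq, GRCh38.p14), and the 3 that differed between populations adjoin each other. EPGN (epigen), another EGFR ligand, was 14.3 to 20.4 FPKM in degron (++) and 2.14 to 5.99 in degron (−) libraries, with a log2 fold change of 1.88 (adjusted p = 8.54e-05, limma) at 0 Gy. On the side of EPGN, MTHFD2L was at 0.471 to 0.762 and 0.429 to 1.07 FPKM, and the chemokine gene CXCL2 was at 3.48 to 6.23 and 0.238 to 1.54 FPKM with a log2 fold change of 1.42. On the side of BTC, PARM1 was at 0 to 0.017 FPKM in degron (++) and 0.441 to 0.747 in degron (−) libraries and was not tested. RCHY1 was 0.38 higher and THAP6 fell by 0.47 on the log2 scale in degron (++) cells. The run of higher genes was thus broken by genes at low level on both sides.

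The promoters of these 4 neighbouring genes are shown because 3 of them were higher in degron (++) cells while BTC was near 0 in both. Each line gives the 250 bases before the RefSeq start of the gene on GRCh38.p14, 5′ to 3′ in the direction of transcription, with matches to the searched motifs in capitals.
EPGN, chr4:74308220-74308469, plus strand: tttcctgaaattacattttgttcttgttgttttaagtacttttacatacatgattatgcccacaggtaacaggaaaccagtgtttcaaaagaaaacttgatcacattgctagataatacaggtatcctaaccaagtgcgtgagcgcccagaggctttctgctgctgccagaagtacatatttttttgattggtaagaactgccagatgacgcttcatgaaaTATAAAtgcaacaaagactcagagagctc
EREG, chr4:74364895-74365144, plus strand: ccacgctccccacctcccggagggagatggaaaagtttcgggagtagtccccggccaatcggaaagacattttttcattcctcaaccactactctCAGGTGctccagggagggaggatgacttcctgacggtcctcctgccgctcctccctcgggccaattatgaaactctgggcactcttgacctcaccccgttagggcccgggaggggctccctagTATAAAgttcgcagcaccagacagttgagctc
AREG, chr4:74444886-74445135, plus strand: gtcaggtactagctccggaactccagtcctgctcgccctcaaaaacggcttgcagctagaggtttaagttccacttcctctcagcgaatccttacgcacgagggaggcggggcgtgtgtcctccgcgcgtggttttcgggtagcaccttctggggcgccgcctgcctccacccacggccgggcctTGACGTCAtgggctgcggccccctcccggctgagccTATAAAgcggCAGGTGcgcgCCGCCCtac
BTC, chr4:74794524-74794773, minus strand: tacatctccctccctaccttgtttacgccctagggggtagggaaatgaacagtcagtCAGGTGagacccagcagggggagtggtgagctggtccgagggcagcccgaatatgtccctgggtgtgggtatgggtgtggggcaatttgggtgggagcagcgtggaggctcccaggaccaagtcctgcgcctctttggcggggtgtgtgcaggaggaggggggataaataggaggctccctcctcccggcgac

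The motifs were searched on both strands by their letters, which are TATAAA for the TATA box, TGACGTCA for the cyclic AMP response element, TGANTCA for AP-1, CACCTG for an E-box bound by repressors such as SNAI1 and ZEB1, and GGGCGG for the GC box. TATAAA began 29 bases before the start in EPGN, 32 in EREG and 29 in AREG, and it was not in the 250 bases of BTC. Only exact letters were searched, so a near match such as ataaata toward the end of the BTC window was not counted. TATAAA is the word meant in the share that follows. It was in 10.7% of 35116 promoters of that length. TGACGTCA was found in AREG only, 65 bases before the start, and it was in 1.65% of all promoters. CACCTG, read here as its reverse complement, began 155 bases before the start in EREG, 19 in AREG and 193 in BTC, and it was in 17.5% of all promoters. The GC box, held by 42.6% of all promoters, began 9 bases before the start of AREG, and TGANTCA, held by 6.57%, was in none of these 4. No capital stretch overlaps another. Of the members elsewhere in the genome, EGFR held 2, TGFA 3 and HBEGF 5 GC boxes and none of these 3 held TATAAA, HBEGF also held 1 CACCTG, and ERBB2 held 1 TGANTCA. A match of letters is a description of the window and not a binding site.

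The neuregulins did not share one direction. NRG1 (neuregulin 1), the main ligand of ERBB3, was 4.40 to 5.41 FPKM in degron (++) and 10.9 to 14.4 in degron (−) libraries, and its log2 fold change was −1.20, −1.32 and −1.24 in the 3 conditions (adjusted p = 1.89e-07, 9.1e-08 and 1.81e-07, limma). NRG2, another neuregulin, was listed at 0 in all 6 degron (++) libraries and lay at 5.51 to 7.57 FPKM in degron (−) libraries, so that it passed the filter only through the latter and had to be the lower in degron (++) if tested at all. NRG1 was thus lower in the cells in which its receptor gene ERBB3 was high, beside 40.2%, 40.8% and 39.6% of all genes tested that were lower in the 3 conditions and 34.9% that were lower in all of them with no overlap. NRG4, which binds ERBB4, was low and higher in degron (++) cells, at 0.853 to 1.72 against 0.24 to 0.633 FPKM (log2 fold change 0.93), and since it reached 1 FPKM only in degron (++) libraries it could be tested only as higher. ERBB4 was listed at 0 to 0.014 FPKM, EGF at 0 to 0.152 and NRG3 at 0 to 0.05, and none of the 3 was tested.

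Summed over EGF, TGFA, AREG, EREG, EPGN, HBEGF and BTC, the ligands of EGFR came to 101 to 136 FPKM in degron (++) and 34.9 to 54.3 in degron (−) libraries. The neuregulins NRG1 to NRG4 summed to 5.96 to 6.93 and 17.5 to 22.0 FPKM. HBEGF made up 47.3% to 50.3% of the EGFR ligand sum in degron (++) and 62.6% to 75.5% in degron (−) libraries. TGFA made up 17.1% to 19.4% against 8.63% to 13.1%, and EREG 16.5% to 18.7% against 8.74% to 12.3%. EPGN did not separate in the same way, at 12.3% to 15.3% against 5.99% to 14.0% of the sum.

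FPKM are scaled to gene length, so levels can be ordered within a population. Over the 6 degron (++) libraries the mean level ran from EGFR (84.5 FPKM) through HBEGF (58.4), ERBB3 (43.5), ERBB2 (29.9), EREG (21.8), TGFA (21.6) and EPGN (17.5) to NRG1 (4.93), AREG (1.45), NRG4 (1.32) and BTC (0.206). In this order HBEGF overlapped ERBB3, EREG overlapped TGFA, TGFA overlapped EPGN, and AREG overlapped NRG4. In degron (−) cells the order was EGFR (58.2 FPKM), HBEGF (28.9), NRG1 (13.1), ERBB2 (8.13), NRG2 (6.45), ERBB3 (5.79), TGFA (4.90), EREG (4.58), EPGN (4.09), NRG4 (0.409), AREG (0.312) and BTC (0.0583). There each gene from ERBB2 to EPGN overlapped the next. ERBB3 was thus at place 3 in degron (++) cells, above ERBB2, and at place 6 in degron (−) cells, within a group of genes that the spread between libraries did not separate. On the TPM scale the order was the same, and HBEGF then stood apart from ERBB3 in degron (++) cells.

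After 4 Gy at 48 h, 4 of 7 tested members were higher than after 0 Gy in degron (−) cells. These were the receptor ERBB3, at 1.61 times its mean FPKM, and the ligands EREG, TGFA and HBEGF, at 1.39 to 1.49 times. Over all genes tested, 3.85% were higher and 0.873% lower in that comparison. In degron (++) cells EREG, TGFA and HBEGF were 1.23 to 1.33 times as high after 4 Gy, but 0 of 7 members passed the adjusted threshold, where 1.42% of all genes were higher and 0.402% lower, and 3 members (EREG, TGFA and HBEGF) had an unadjusted p under 0.05 (limma).

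In degron (−) cells ERBB3 rose by 0.59 ± 0.10 on the log2 scale (SE, adjusted p = 0.0178, limma) between 0 Gy and 4 Gy, with 5.38 and 5.11 FPKM before and 8.20 and 8.66 after. EREG rose by 0.47 (adjusted p = 0.0339, limma), TGFA by 0.48 (adjusted p = 0.00586, limma) and HBEGF by 0.45 (adjusted p = 0.0161, limma). For each of these 4 genes both irradiated libraries were above both unirradiated ones. EGFR had a log2 fold change of 0.16 (adjusted p = 0.155, limma), ERBB2 of 0.11 and AREG of 0.21, and none of the 3 passed. With a library left out, the TGFA call held in all 4 cases, while the call of ERBB3 was lost in all 4, with adjusted p of 0.0579 to 0.114 (limma). EREG and HBEGF lost theirs without either 0 Gy library and without replicate 2 of 4 Gy/48 h, leaving 1 member past the threshold in each of these 3 cases. EREG also lost it with no filter and on the TPM scale, and when the fit held the compared libraries alone none of the 4 passed.

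In degron (++) cells the log2 fold change after 4 Gy was 0.39 for EREG (adjusted p = 0.0942, limma), 0.29 for TGFA (adjusted p = 0.0611, limma) and 0.29 for HBEGF (adjusted p = 0.103, limma). The receptors gave −0.13 (EGFR), −0.11 (ERBB2) and 0.12 (ERBB3). The difference of the dose response between populations was tested as an interaction, and 0 of 7 members passed (limma), beside 0.0772% of all genes tested. For ERBB3 this difference was −0.48 (95% interval −0.81 to −0.14, adjusted p = 0.218, limma) and for EGFR −0.29 (−0.48 to −0.11, adjusted p = 0.185, limma), the 2 members with an unadjusted p under 0.05.

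Between 30 h and 48 h at 4 Gy, ERBB3, TGFA and EREG rose in degron (−) cells. The 4 Gy/48 h libraries enter this comparison and the dose comparison alike, so the values of both are given side by side and their likeness is no separate result. In degron (−) cells the log2 fold change from 30 h to 48 h was 1.02 ± 0.10 (SE) for ERBB3, 0.68 for TGFA and 0.56 for EREG (adjusted p = 0.00103, 0.000726 and 0.0133, limma), against 0.59, 0.48 and 0.47 for dose. These were 3 of the 7 tested members, where 6.01% of all genes tested were higher and 1.17% lower. EREG lost its call without either degron (−) library at 30 h and without replicate 2 at 48 h (adjusted p = 0.0564 to 0.0895, limma), and in a fit of the compared libraries alone none of the 3 passed (adjusted p = 0.0859 to 0.124, limma). HBEGF, which passed for dose, gave 0.013 for time, since it was already at 30.5 and 32.8 FPKM at 30 h. In degron (++) cells 0 of 7 members passed (limma), 1 of them (EGFR, −0.17) had an unadjusted p under 0.05, and 0.657% of all genes were higher and 0.548% lower.

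**Figure D3:**
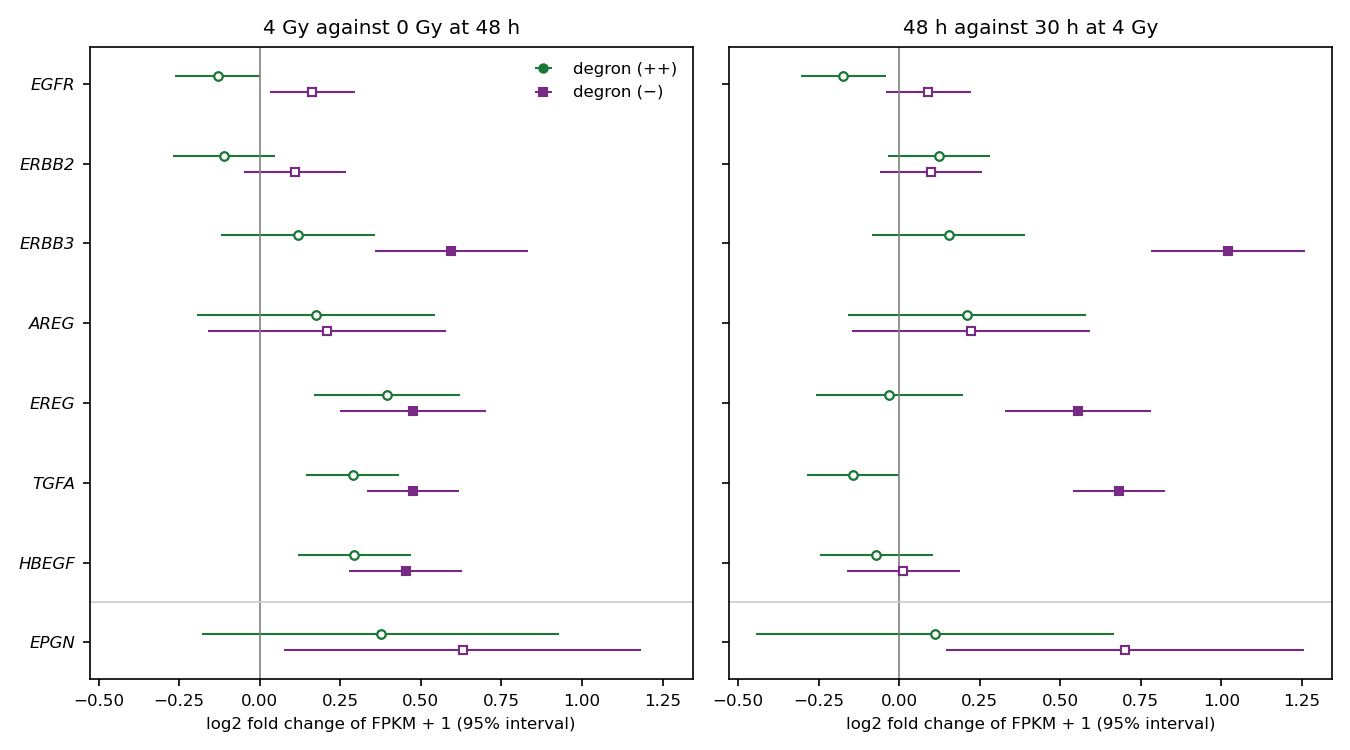
Log2 fold change of FPKM + 1 after 4 Gy against 0 Gy at 48 h (left) and at 48 h against 30 h at 4 Gy (right) for 7 members and EPGN, with 95% intervals of limma; circles are degron (++), squares are degron (−), and filled symbols have an adjusted p under 0.05. The filled squares are ERBB3, EREG, TGFA and HBEGF on the left and ERBB3, EREG and TGFA on the right, and no circle is filled.

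The difference of the time course between populations passed the test for TGFA, at −0.82 (95% interval −1.03 to −0.62, adjusted p = 0.00468, limma), and for ERBB3, at −0.87 (−1.20 to −0.53, adjusted p = 0.0212, limma), beside 3.23% of all genes tested. A negative value means a lower log2 fold change from 30 h to 48 h in degron (++) than in degron (−) cells. The term compares ratios and not differences in FPKM, and the populations started from unlike levels. EREG did not pass, at −0.59 (adjusted p = 0.0657, limma). In mean FPKM, TGFA went from 24.6 to 22.2 in degron (++) and from 3.70 to 6.55 in degron (−) cells, and ERBB3 from 41.5 to 46.4 and from 3.68 to 8.43. The TGFA call held whichever library was left out. The ERBB3 call was lost without either degron (++) library at 30 h, without replicate 1 of degron (++) at 48 h and without replicate 2 of degron (−) at 48 h (adjusted p = 0.0700 to 0.0864, limma), leaving 1 member past the threshold in each. Without replicate 1 of degron (−) at 4 Gy/48 h, EREG passed as well (−0.72, adjusted p = 0.0263, limma).

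Of the 6 epithelial markers, CDH1, KRT7 and EPCAM moved with ERBB3 and TGFA in degron (−) cells. CDH1 (E-cadherin, the epithelial adhesion molecule) was 8.36 and 7.69 FPKM at 0 Gy/48 h, 6.56 and 6.79 at 4 Gy/30 h, and 11.7 and 12.8 at 4 Gy/48 h. From 30 h to 48 h CDH1 rose by 0.79, KRT7 by 0.86 and EPCAM by 0.64 on the log2 scale (adjusted p = 0.000176, 0.00116 and 0.00107, limma), and for dose the 3 genes rose by 0.56, 0.44 and 0.37. KRT8, KRT18 and KRT19, the other 3 of the 6 markers, gave 0.24, 0.20 and 0.12 for time and did not pass, whereas 5 of the 6 passed on the TPM scale and 5 after quantile normalization. The time course of CDH1, KRT7 and EPCAM also differed between populations, by −0.76, −0.96 and −0.69 (adjusted p = 0.0039, 0.0109 and 0.0109, limma). KRT8, KRT18 and KRT19 did not pass that test. Among the fibroblast markers COL1A1 gave 0.082 for time in degron (−) cells (adjusted p = 0.658, limma) and LUM rose by 0.76. The part of the epithelial markers, or of a share of more epithelial cells, in the course of ERBB3 and TGFA was not tested.

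**Figure D4:**
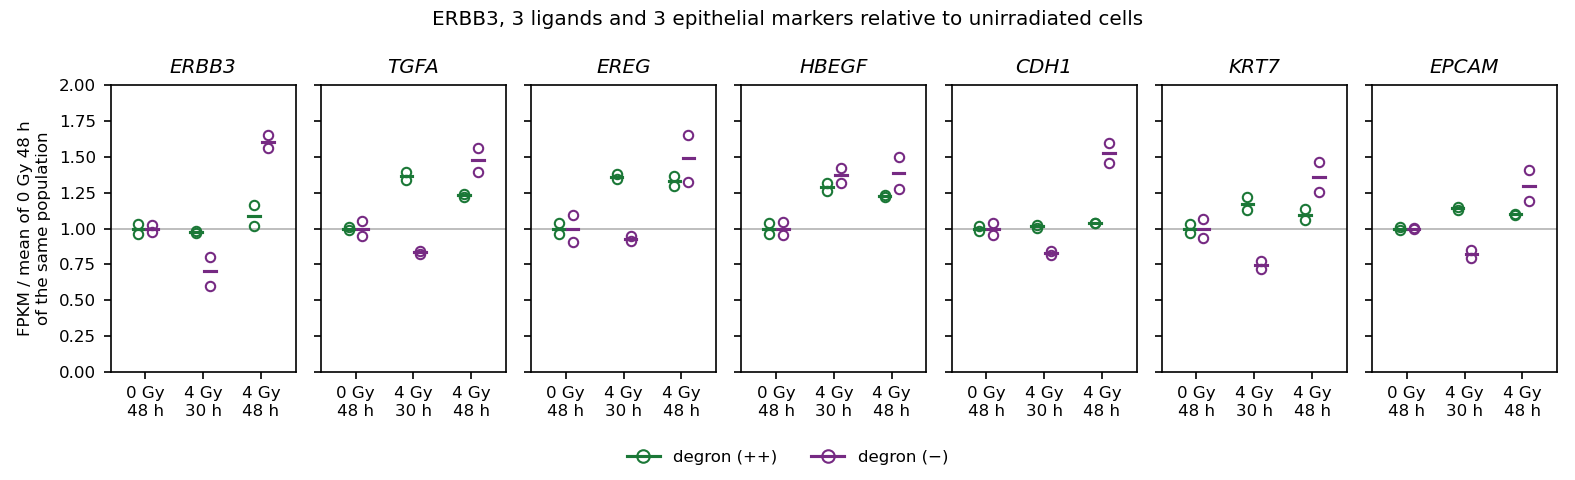
FPKM of ERBB3, TGFA, EREG, HBEGF and the epithelial markers CDH1, KRT7 and EPCAM in each library, divided by the mean of the 0 Gy libraries of the same population; circles are libraries, bars are group means, green is degron (++) and purple is degron (−). At 4 Gy/30 h the purple circles lie under 1 for all genes shown except HBEGF, and at 4 Gy/48 h they lie above 1 for all 7. The other epithelial markers, KRT8, KRT18 and KRT19, are not shown.

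The group at 4 Gy/30 h differs from the unirradiated group in dose and in time, so its ratio to that group is given without a test. In degron (++) cells TGFA, EREG and HBEGF stood at 1.37, 1.36 and 1.29 times their 0 Gy mean, and ERBB3 at 0.975 times. In degron (−) cells ERBB3 stood at 0.702, TGFA at 0.836 and EREG at 0.929 times their 0 Gy mean, and HBEGF at 1.37 times. AREG, near the limit of the filter, stood at 0.950 and 0.951 times in degron (++) and degron (−) cells.

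The rest of the pathway did not follow the receptors and ligands in one direction. The counts of its lists at 0 Gy/48 h stand beside 37.6% of all genes tested that were higher and 40.2% that were lower in degron (++) cells. Of 12 genes for the release of ligands, 11 were tested, 6 were higher and 4 lower, with a median log2 fold change of 0.10. ADAM15 (77.0 to 82.8 against 25.0 to 33.6 FPKM, log2 fold change 1.49) and ADAM9 (95.1 to 107 against 52.0 to 60.4 FPKM, 0.94) were the higher ones with the largest difference, followed by ADAM12 (0.70). ADAM17, the main sheddase of TGFA, AREG, EREG and HBEGF, was higher by 0.68. The protease genes ADAM19 (−2.47) and RHBDL2 (−1.85), and RHBDF2 (−0.36), which carries ADAM17 to the cell surface, were lower. ADAM12 passed the filter only through degron (++) and ADAM19 only through degron (−) libraries. On the TPM scale 4 of the 11 were higher and 5 lower, so the side that held more genes turned with the scaling. All genes tested shifted the same way at 0 Gy/48 h. On the FPKM scale 4864 of them were higher and 5198 lower, with a median of −0.023. On the TPM scale 3523 were higher and 6287 lower, with a median of −0.21. The TPM counts of this list and of those that follow stand beside that shift, and a shift of the lists beyond it was not tested.

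Of 20 adaptors and proximal signalling genes, 5 were higher, 10 lower and 5 not past the threshold (median −0.15), and on the TPM scale 3 were higher and 13 lower. GRB7 (log2 fold change 2.39), GAB1 (0.92) and VAV2 (0.74) were higher, GAB1 having passed the filter only through degron (++) libraries. GRB7 binds ERBB2 and lies near it on chromosome 17, and it was 5.89 to 8.83 FPKM in degron (++) and 0.263 to 1.85 in degron (−) libraries. SHC1 (−1.76), an adaptor of EGFR, PIK3CB, a catalytic subunit of PI3K (8.18 to 9.04 against 17.7 to 19.6 FPKM), and NCK2 (−0.75) were lower. SHC1 lay at 45.4 to 50.5 FPKM in degron (++) and 170.8 to 200.1 in degron (−) libraries.

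Of 16 genes of the RAS, RAF, MEK, ERK and AKT kinases and their direct regulators, 3 were higher, 11 lower and 2 not past (median −0.30), and on the TPM scale 2 were higher and 12 lower. AKT2, a kinase activated downstream of PI3K, was 38.6 to 41.4 against 445 to 521 FPKM (log2 fold change −3.59, adjusted p = 2.38e-11, limma). AKT2 lies in a region of chromosome 19 that is known to be amplified in PANC-1 cells. Copy number was not measured, and whether the populations differ in it was not tested. PDPK1, which phosphorylates AKT, was 0.85 higher, and AKT1 (−0.63) was lower.

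Of 20 negative regulators, 9 were higher, 9 lower and 2 not past (median −0.12), and on the TPM scale 6 were higher and 11 lower. The ubiquitin ligases of the CBL family, which mark active receptors for breakdown, split: CBLC (2.08) and CBLB (1.84) were higher and CBL (−2.03) was lower. PTPN1, a phosphatase of receptor kinases, was 0.73 higher. ERRFI1 (MIG6), which blocks the EGFR kinase, was 39.2 to 45.5 FPKM in degron (++) and 157 to 218 in degron (−) libraries (−2.06). SPRY4, a feedback inhibitor of the ERK pathway, was 4.34 to 5.48 against 19.9 to 24.8 FPKM (−1.99).

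Of 15 genes that follow ERK activity, 3 were higher, 10 lower and 2 not past at 0 Gy (median −0.74), and on the TPM scale 2 were higher and 11 lower. DUSP4, an ERK phosphatase (29.8 to 37.1 against 3.31 to 7.91 FPKM, log2 fold change 2.50), and EPHA4 (1.03), which passed the filter only through degron (++) libraries, were higher. SPRY4, which is in both lists, EGR1 (−1.49) and FOSL1 (−1.35) were lower, the transcription factor gene FOSL1 at 91.7 to 126 against 220.4 to 249.7 FPKM. RNA levels of these genes are not a measure of receptor or ERK activity, and no protein was measured. The 5 lists together had 26 calls higher and 44 lower of 82 entries tested, beside the 37.6% and 40.2% of all genes, with SPRY2 and SPRY4 entered in both of the last 2 lists.

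**Figure D5:**
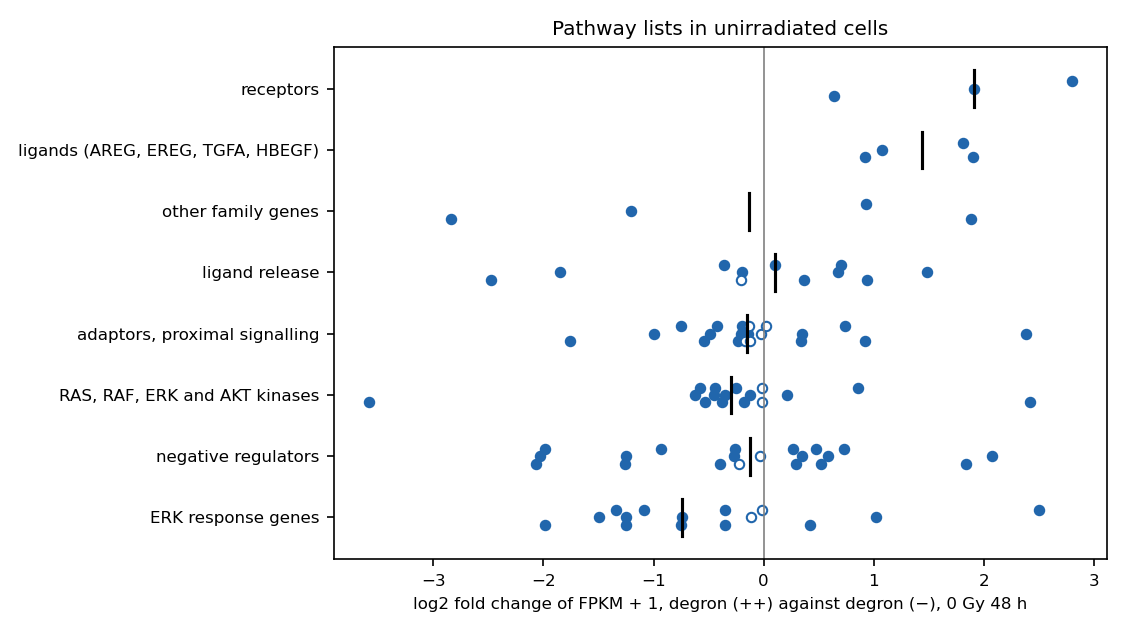
Log2 fold change of FPKM + 1 in degron (++) against degron (−) cells at 0 Gy/48 h for each tested gene of 8 lists; filled circles have an adjusted p under 0.05 (limma), open circles do not, and black bars are list medians. The receptors and the 4 ligands of the set lie to the right of 0, with medians of 1.92 and 1.44, and the other 6 lists spread to both sides. AREG, 1 of the 4 ligands, passed the filter only through degron (++) libraries and so could lie only to the right.

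After irradiation few of these pathway genes moved. For dose, 3 of the 82 entries rose in degron (++) cells, beside 1.42% of all genes tested, and they were DUSP5, DUSP6 and FOSL1 (0.49, 0.41 and 0.33 on the log2 scale). In degron (−) cells 5 rose, beside 3.85%, and they were DUSP5 (0.63), ADAM15, MAP2K1, DUSP4 and ETV4. On the TPM scale only DUSP5 in degron (−) cells kept its call for dose. Between 30 h and 48 h in degron (−) cells DUSP4 (0.93), GRB7 (0.88) and CBLC (0.87), all higher in degron (++) cells, rose, as did ADAM15 and ARAF, while AKT2, SHC1 and ERRFI1 (−0.21, −0.13 and −0.26), all lower in degron (++) cells, fell. In degron (++) cells HGS and PHLDA1 rose over the same interval. The background for time was 6.01% higher and 1.17% lower in degron (−) and 0.657% higher in degron (++) cells. Of the genes named for time, DUSP4, GRB7, CBLC and AKT2 kept their calls on the TPM scale and the others did not.

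Among the 3 tested genes with the highest Pearson correlation to each member over the 12 libraries on log2(FPKM + 1), those below are named as a description. All 12 points share the difference between populations, so the correlation after centring within each population is given beside it, and it still holds the differences of dose and time and those of library scaling. Among the nearest to ERBB3 were ST14 (r = 0.999, centred 0.969), an epithelial surface protease, and GATA3. The nearest to TGFA were F3 (tissue factor, r = 0.998, centred 0.974), HS3ST1 and C20orf197, and among those of EREG were C20orf197 (r = 0.998, centred 0.961) and ENC1, so that C20orf197 was named for both. For ERBB2 they were PPP1R9A (r = 0.998, centred 0.835), TMPRSS3 and EPB41L1, and for HBEGF MZT1 (r = 0.991, centred 0.928), CST3 and MGLL. EGFR was nearest to ADCY7 (r = 0.987, centred 0.846), CNOT1 and MAN2A1, and AREG to FRZB (r = 0.980, centred 0.797), HSP90B1 and ABHD16B.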

How the data were processed

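RNA of 12 libraries was prepared with a stranded mRNA kit and sequenced. The values deposited by the authors are FPKM, given by gene symbol. The submitters' processing notes name TopHat2 2.1.1, Bowtie2 2.2.8, SAMtools 0.1.18, Cuffdiff 2.2.1 and the build hg19, and the annotation is not given in the sources used here. FPKM hold no counts, so the depth of a library is not known and counting error could not be given, and a value of 0 was read only as listed at 0. The steps between low values put relative depth at 0.863 to 1.17. MIR622 held 28.6% to 30.0% of the FPKM sum in degron (++) and 22.5% to 27.1% in degron (−) libraries. Its part in the shift of all genes on the TPM scale was not tested. No 2 libraries held identical values.

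From the FPKM, log2(FPKM + 1) was tested with limma 3.58.1 (lmFit, eBayes with trend) in R 4.3.3 on 12946 genes with at least 1 FPKM in at least 2 libraries, fitting 6 group means over all 12 libraries. A Benjamini-Hochberg adjusted p under 0.05 over all these genes was the threshold, and a log2 fold change on this scale understates the change of low genes. The fit was tested on simulated data for the population comparison at 0 Gy/48 h only, with 200 of 12946 genes changed by 1 on the log2 scale. It found 91% of them and made 6 false calls. Far more genes were called in the data (37.6% higher and 40.2% lower), and the dose, time and interaction terms were not simulated. Alternatives were a pseudocount of 0.1, a filter at 5 FPKM or none, TPM, quantile normalization, eBayes without trend, a replicate block, a fit of the compared libraries alone, and leaving out each library. Summaries and figures were made with pandas 2.3.3, numpy 2.4.6 and matplotlib 3.10.9 under Python 3.11.15.

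The members and the pathway lists were chosen with earlier results of these data known. Named pathway genes are up to 3 of each list with the largest rise and fall at 0 Gy and 48 h, among those past the threshold in the same direction in all 3 conditions with no overlap of libraries. All family genes, neighbours on the chromosome and the 3 nearest genes of each member are named too. Some genes that these rules select are not reported here. ADAM17 and the pathway genes named for dose and time were chosen after their values were seen. Promoters, chromosomes and gene order are from RefSeq on GRCh38.p14, which placed all 15 family genes and gave promoters for 13.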

Additional observations from a re-analysis of the deposited data

Results flagged for a closer look

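The change of ERBB3 and TGFA between 30 h and 48 h after 4 Gy differed between the populations by the interaction term of limma. That term compares log2 fold changes. In mean FPKM, ERBB3 went from 41.5 to 46.4 in degron (++) and from 3.68 to 8.43 in degron (−) cells. For ERBB3 the difference, degron (++) minus degron (−), was −0.87 on the log2 scale (adjusted p = 0.0212, limma), with 0.15 in degron (++) and 1.02 in degron (−) cells, and both degron (−) libraries at 48 h lay above both at 30 h. For TGFA it was −0.82 (adjusted p = 0.00468, limma), with −0.14 in degron (++) and 0.68 in degron (−) cells, and the libraries of the 2 times did not overlap in either population. The epithelial markers CDH1, KRT7 and EPCAM gave −0.76, −0.96 and −0.69 in the same test. KRT8, KRT18 and KRT19, the other 3 of the 6 markers, did not pass it. The part of the markers in the course of ERBB3 and TGFA was not tested. Groups of 2 libraries are too small for a test of single libraries that stand apart.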

How the results depend on the processing

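All 21 calls of the tested members between populations kept their direction under every alternative that tested the gene, and 20 kept their call. The call of EGFR at 4 Gy and 48 h was lost on the TPM scale (0.083, adjusted p = 0.332, limma). AREG did not pass the filter at 5 FPKM, so its calls had no value under that alternative. It passed the main filter only through degron (++) libraries, so its calls could only be higher and their kept direction is no support. Their values are also among the 365 counted below. TPM moved the share of called genes that were higher from 48.3%, 48.5% and 48.3% to 35.9%, 33.3% and 31.7% in the 3 conditions, and for dose in degron (++) from 78.0% to 59.6%. Quantile normalization moved it for time in degron (−) from 83.7% to 72.5%. The calls for dose and time were less firm. When the fit held the compared libraries alone, which leaves fewer libraries to estimate the spread, 0 members passed for dose and 0 for time in degron (−), against 4 and 3, and 1 of 2 kept its time-by-population call. With each library left out, 1 to 3 members passed for dose in degron (−), 2 to 3 for time in degron (−) and 1 to 3 for time by population. Of 365 alternative values of calls past the threshold, 337 kept their call, 28 lost it and 0 changed sign. Of 438 values of results not past it, 1 passed and 21 changed sign. Of the latter, 18 came from leaving out a library, over which the log2 values ran as follows. AREG ran from −0.023 to 0.44 for dose and from −0.010 to 0.46 for time in degron (−), from −0.27 to 0.20 for dose by population and from −0.24 to 0.22 for time by population. EREG ran from −0.065 to 0.0037 for time in degron (++) and from −0.22 to 0.058 for dose by population. HBEGF ran from −0.097 to 0.12 for time in degron (−) and from −0.19 to 0.027 for time by population, and ERBB2 from −0.057 to 0.11 for time by population. The other 3 were HBEGF for time in degron (−) on the TPM scale (−0.022), and AREG after quantile normalization for dose by population (0.081) and time by population (0.11). The cause of these changes was not tested.

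Same-numbered replicates of different groups deviated together with a correlation of −0.038 to 0.12 over 15 pairs of groups (median 0.040), so no strong shared deviation was seen. A weak shared effect could be hidden by the spread between libraries, so a common origin of same-numbered libraries was not settled. A replicate block left the count of members past the threshold at 7, 7 and 7 between populations, 0 and 4 for dose, 0 and 3 for time, 0 for dose by population and 2 for time by population. FPKM hold no counts, so counting error could not be given, also for AREG and BTC, which were at or under 1.72 FPKM in every library.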
